A study of Mus musculus with 8 samples.

Results

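The T cell receptor complex, its coreceptors and the proteins that act first after it binds antigen were followed through 10 genes: Cd3d, Cd3e, Cd3g, Cd247, Cd4, Cd8a, Cd8b1, Cd28, Lck and Zap70. They were chosen by name, as a measure of how much T cell RNA each isolate held. No threshold on their values was used, but earlier results of these data were known. On the arrays 21 probes carry one of these gene names, of 32039 probes and 21537 gene names tested in all, and all 21 lay well above background on all 8 arrays. The RNA came from CD4+ T cells of C57BL/6 mice. All mice were given transferred CD4+ cells whose transgenic receptor recognises ovalbumin (OVA), followed by immunisation with OVA peptide-pulsed dendritic cells. The isolation took place on day 4. The tumour was MCA205-OVA, a fibrosarcoma line made to express OVA, so the tumour carried the antigen that the transferred cells recognise. The groups held 2 arrays each: tumour-bearing mice given an anti-IL-6R antibody (replicates 7 and 8), tumour-bearing mice given control antibody (3 and 4), tumour-free mice given anti-IL-6R (5 and 6) and tumour-free mice given control antibody (1 and 2). The study asked how the tumour, and blockade of the IL-6 receptor in mice with a tumour, bear on these cells. The isolates held host CD4+ T cells together with transferred ones in a proportion that the labels do not give, and the number of mice per sample is likewise not given.

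The alpha and beta chains of the T cell receptor bind antigen but have almost no cytoplasmic tail. Signals leave through the CD3 chains delta, epsilon and gamma (Cd3d, Cd3e, Cd3g) and the zeta chain (Cd247), whose tails carry immunoreceptor tyrosine-based activation motifs, or ITAMs. CD4 binds class II and CD8 binds class I major histocompatibility molecules, and both bring the kinase Lck to the receptor. Lck phosphorylates the ITAM tyrosines, the kinase ZAP-70 docks on them, and CD28 adds the costimulatory signal. The CD3 genes, Lck and Zap70 are used as identity genes of T cells in general, Cd4 as that of helper T cells, and Cd8a and Cd8b1 as those of cytotoxic T cells.

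The 5 probes below, each 60 bases long, read coding sequence of the steps in that order and are shown 5′ to 3′ as the array files give them, with mm9 positions and strand per the file headers. In the Cd3d and Cd247 probes the capitals mark the 2 tyrosine codons, found in an open frame by the spacing of an ITAM.
Cd3d A_51_P285206, chr9:44794171-44794402, plus strand: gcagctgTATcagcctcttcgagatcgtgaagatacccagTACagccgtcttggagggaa
Cd247 A_52_P173555, chr1:167786567-167787585, plus strand: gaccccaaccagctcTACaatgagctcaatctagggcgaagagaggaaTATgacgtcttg
Cd4 A_52_P383089, chr6:124817706-124817765, minus strand: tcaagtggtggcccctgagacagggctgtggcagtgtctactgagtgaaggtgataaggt
Lck A_55_P2506985, chr4:129229196-129229255, minus strand: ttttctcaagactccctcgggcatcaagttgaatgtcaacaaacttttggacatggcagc
Zap70 A_55_P2153122, chr1:36839315-36839374, plus strand: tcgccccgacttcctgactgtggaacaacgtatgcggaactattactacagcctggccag
The Cd3d and Cd247 probes cover 232 and 1019 genomic bases, so each of them spans an intron and reads spliced RNA. The polyadenylation signal AATAAA stood in 6 of the 21 member probes (28.6%) and in 9.77% of all 56605 probes. Those 6 were the brightest probes of Cd3d, Cd3e, Cd4, Cd28 and Lck and the dimmer Cd28 probe.

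Levels are log2 signals relative to the array's own 75th percentile of all probes, which lay between 500.3 and 526.6 before scaling. Differences between groups were tested with limma across all 32039 probes, and a probe was called at a Benjamini-Hochberg adjusted p under 0.05. On each array 55.1% to 61.5% of spots lay well above background, and the arrays correlated at r = 0.992 to 0.993 within groups and 0.978 to 0.992 between groups. No spot was saturated. With 2 arrays per group the number of arrays limits the precision. The value of a probe can be compared between arrays but not with that of another probe.

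None of the 9 probes of the CD3 chains was called in any comparison. Among their brightest probes the largest change between groups was that of Cd3d with anti-IL-6R in tumour-bearing mice, at -0.39 ± 0.12 against control antibody (limma adjusted p = 0.088). For Cd3d, probe A_66_P109615 stood at 7.24 and 6.95 in tumour-bearing mice with anti-IL-6R and at 7.42 and 7.56 in those with control antibody. It stood at 7.41 and 7.19 in tumour-free mice with anti-IL-6R and at 7.32 and 7.17 in those with control antibody. The highest values were thus those of tumour-bearing mice with control antibody, and the lowest was replicate 8. Cd3e, the chain whose gene is most often used to identify T cells, was at 6.23 and 6.19 in tumour-bearing anti-IL-6R mice and at 6.38 and 6.47 in tumour-bearing controls (probe A_55_P2156229). It was at 6.37 and 6.28 in tumour-free anti-IL-6R mice and at 6.39 and 6.28 in tumour-free controls. The tumour-bearing anti-IL-6R arrays were lowest for Cd3e, and the tumour-free controls overlapped both other groups. Cd3g was at 5.71 and 5.61 in tumour-bearing anti-IL-6R mice, 5.84 and 5.97 in tumour-bearing controls, 5.86 and 5.75 in tumour-free anti-IL-6R mice and 5.85 and 5.57 in tumour-free controls. Replicate 2, a tumour-free control, was the lowest array for Cd3g. The zeta chain Cd247 was at 5.36 and 5.31 in tumour-bearing anti-IL-6R mice, 5.39 and 5.52 in tumour-bearing controls, 5.50 and 5.45 in tumour-free anti-IL-6R mice and 5.54 and 5.43 in tumour-free controls (probe A_55_P2487460). From the lowest to the highest of the 8 arrays these 4 probes covered 0.61, 0.28, 0.40 and 0.23 on the log2 scale, against a median range of 0.49 over all tested probes. The mean of the 4 probes, a summary chosen after the data were seen, was 6.07 ± 0.09 in tumour-bearing anti-IL-6R mice, 6.32 ± 0.09 in tumour-bearing controls, 6.23 ± 0.08 in tumour-free anti-IL-6R mice and 6.19 ± 0.11 in tumour-free controls (SD, n = 2 each). The mean of all 9 CD3 chain probes had the opposite order between hosts under control antibody: 3.89 ± 0.04 in tumour-bearing anti-IL-6R mice, 3.92 ± 0.10 in tumour-bearing controls, 3.95 ± 0.05 in tumour-free anti-IL-6R mice and 3.99 ± 0.04 in tumour-free controls. In RNA from whole isolates, fewer T cells and less of these transcripts per T cell cannot be told apart.

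**Figure D1:**
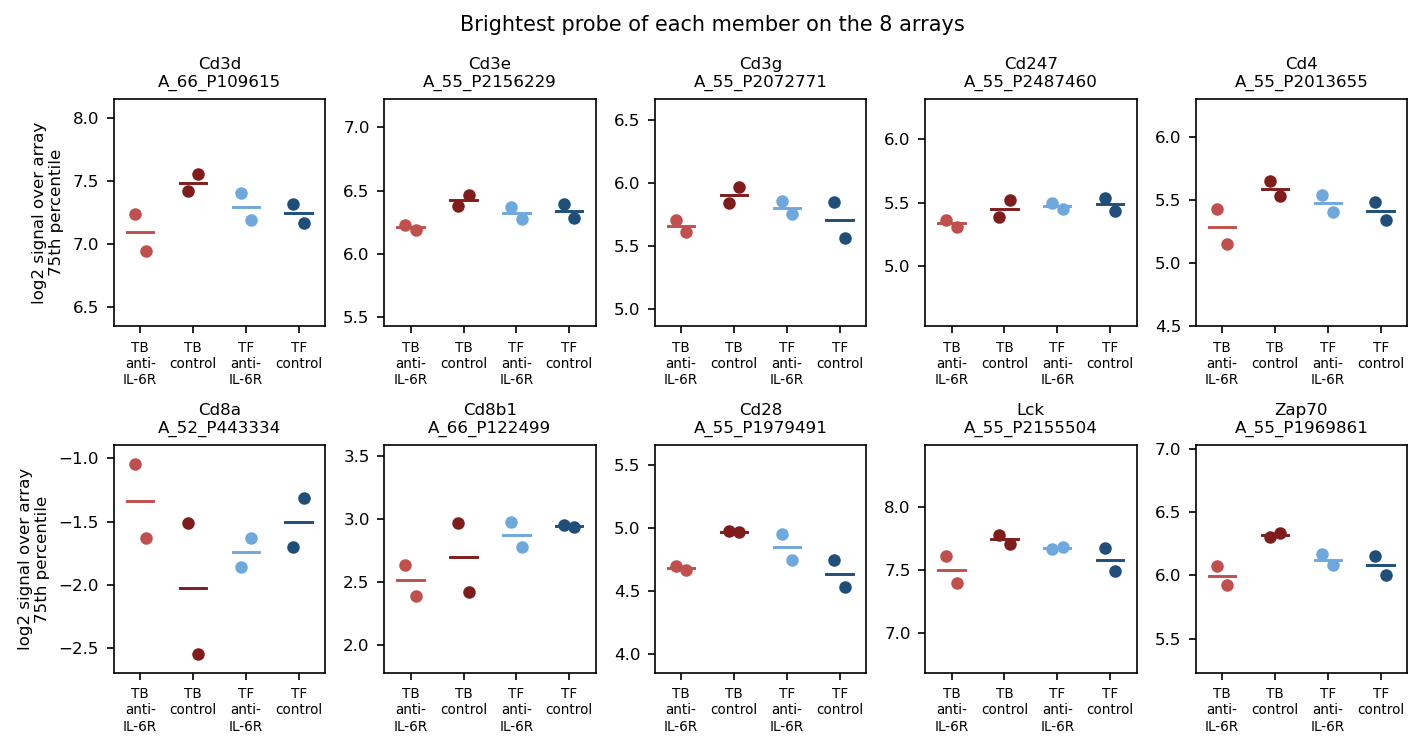
Log2 signal over the array's 75th percentile for the brightest probe of each of the 10 genes. Points are arrays, bars are group means of 2 arrays, TB is tumour-bearing and TF tumour-free, and every panel covers the same span of the log2 scale. The 8 arrays of any gene but Cd8a lie within 0.61 of each other, and those of Cd8a cover 1.50.

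For Cd4 itself, the coreceptor on which the cells were isolated, the brightest probe followed those of Cd3d, Cd3e and Cd3g (r = 0.91, 0.80 and 0.80). Its correlation with that of Cd247 was 0.54. This Cd4 probe, A_55_P2013655, was at 5.42 and 5.15 in tumour-bearing anti-IL-6R mice, 5.65 and 5.53 in tumour-bearing controls, 5.54 and 5.40 in tumour-free anti-IL-6R mice and 5.48 and 5.34 in tumour-free controls. Tumour-bearing controls did not overlap either of the groups they were set against. The other Cd4 probes, A_51_P236573 and A_52_P383089, covered only 0.24 and 0.12 over the 8 arrays. The second of these reads coding sequence and had the smallest range of the 21 member probes, smaller than that of all but 0.462% of tested probes. It correlated with the brightest Cd3d, Cd3e and Cd3g probes at only r = 0.10, 0.15 and 0.19. Its log2 change was -0.05 ± 0.09 between tumour-bearing and tumour-free controls and 0.04 ± 0.09 with anti-IL-6R in tumour-bearing mice. For A_51_P236573 the correlations were 0.51, 0.56 and 0.58.

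The CD8 genes were measurable in isolates labelled CD4+, and they varied more. Cd8b1, the CD8 beta chain, was at 2.64 and 2.39 in tumour-bearing anti-IL-6R mice, 2.97 and 2.42 in tumour-bearing controls, 2.97 and 2.78 in tumour-free anti-IL-6R mice and 2.95 and 2.93 in tumour-free controls. Both tumour-bearing anti-IL-6R arrays and replicate 4, a tumour-bearing control, were below all other arrays. Cd8a, the CD8 alpha chain, was at -1.05 and -1.63 in tumour-bearing anti-IL-6R mice, -1.51 and -2.55 in tumour-bearing controls, -1.86 and -1.63 in tumour-free anti-IL-6R mice and -1.70 and -1.32 in tumour-free controls (probe A_52_P443334). Its other probe, A_52_P150547, had its lowest value on the same array, replicate 4, at -2.95, and its 2 probes correlated at r = 0.67 over the 8 arrays. The pair of tumour-bearing controls therefore disagreed by more than the groups did: the SD in that group was 0.73 for Cd8a and 0.38 for Cd8b1. Relative to tumour-free controls, tumour-bearing controls differed by -0.52 ± 0.33 for this Cd8a probe and by -0.25 ± 0.17 for Cd8b1 (log2 change ± SE). Under anti-IL-6R, Cd8b1 was lower in tumour-bearing than in tumour-free mice by -0.36 ± 0.17, with arrays that did not overlap and a limma adjusted p of 0.590.

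Zap70, the kinase that docks on ITAMs, came closest to the threshold, followed by probes of Cd3d, Cd247 and Cd28, the costimulatory receptor. The brightest Cd28 probe, A_55_P1979491, stood at 4.70 and 4.66 in tumour-bearing anti-IL-6R mice, 4.97 and 4.96 in tumour-bearing controls, 4.95 and 4.74 in tumour-free anti-IL-6R mice and 4.74 and 4.53 in tumour-free controls. Tumour-bearing controls were the highest group. They exceeded tumour-free controls by 0.33 ± 0.10 (1.26-fold, 95% interval 1.08 to 1.46, limma adjusted p = 0.086). Zap70 probe A_55_P2153122 stood at 4.70 and 4.58 in tumour-bearing anti-IL-6R mice, 4.93 and 4.95 in tumour-bearing controls, 4.70 and 4.66 in tumour-free anti-IL-6R mice and 4.68 and 4.59 in tumour-free controls. The tumour-bearing controls were above all other 6 arrays, whose values overlapped. Their Zap70 level was 4.94 ± 0.01, against 4.64 ± 0.07 in tumour-free controls (SD, n = 2 each), a log2 change of 0.31 ± 0.07 with an adjusted p of 0.052. Against those controls, tumour-bearing anti-IL-6R mice had a log2 change of -0.30 ± 0.07 with an adjusted p of 0.055. The second Zap70 probe, A_55_P1969861, gave 0.24 ± 0.08 and -0.32 ± 0.08 for the same comparisons. These comparisons share the tumour-bearing control arrays, so their opposite signs are not independent. The Zap70 probe A_55_P2153122 passed the threshold in 3 of 10 alternative settings for the tumour comparison (adjusted p from 0.027 to 0.133) and in 2 of 10 for the antibody comparison (0.044 to 0.129).

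Lck, the kinase that starts the cascade, was likewise highest in tumour-bearing controls. Probe A_55_P2155504 was at 7.61 and 7.40 in tumour-bearing anti-IL-6R mice, 7.78 and 7.71 in tumour-bearing controls, 7.67 and 7.68 in tumour-free anti-IL-6R mice and 7.67 and 7.49 in tumour-free controls. The log2 change was 0.16 ± 0.09 between tumour-bearing and tumour-free controls and -0.24 ± 0.09 between anti-IL-6R and control antibody in tumour-bearing mice. Neither passed the test, with adjusted p of 0.348 and 0.147. The second probe, A_55_P2506985, gave 0.16 ± 0.10 and -0.21 ± 0.10.

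Over the comparisons, 0 of the 21 member probes were called. In tumour-bearing against tumour-free mice with control antibody, 5.25% of all tested probes were called. At an unadjusted p under 0.05, 6 of the 21 passed, where 23.8% of all probes did. The median change of the members was 0.09, against 0.01 over all probes, and their changes ran from -0.93 to 0.33. In 9 of the 21 both tumour-bearing arrays were above both tumour-free arrays (27.8% of all probes), and in 2 they were below (24.7%). For anti-IL-6R against control antibody in mice with the tumour, 4.27% of all probes were called. Here 11 of the 21 members passed an unadjusted p under 0.05, where 27% of all probes did. The median of the members was -0.18, against -0.04 over all probes, and 13 of the 21 were lower without overlap, where 34.1% of all probes were, and 2 higher, where 25.7% were. With normexp background correction in place of the processed signal, 1 member probe was called in the tumour comparison and 2 in the antibody comparison.

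The same antibody comparison in tumour-free mice called 0.0312% of all probes, and 1 of the 21 members had an unadjusted p under 0.05, where 8% of all probes did. That member was the dim Cd28 probe A_52_P271511, also the 1 probe lower without overlap (16.9% of all probes), and 0 were higher without overlap (23%). Under anti-IL-6R, the tumour comparison called 0.209% of all probes, and 0 of the 21 members had an unadjusted p under 0.05, where 7.43% of all probes did. There 10 of the 21 were lower without overlap, where 31.9% of all probes were, and 1 was higher, where 16% were. The 10 include 1 or more probes of each member except Cd4. The smallest adjusted p of a member was 0.619 in the first of these and 0.590 in the second. The difference between the antibody effects, in tumour-bearing minus tumour-free mice, called 0.025% of all probes. For it, 10 of the 21 members had an unadjusted p under 0.05, where 23.6% of all probes did. The brightest Cd28 probe had a difference of -0.50 ± 0.13 (adjusted p = 0.107), and Zap70 A_55_P2153122 one of -0.35 ± 0.10 (adjusted p = 0.115). The 95% intervals of the log2 change between tumour-bearing and tumour-free controls, for the brightest CD3 probes, were -0.03 to 0.52 for Cd3d, -0.08 to 0.26 for Cd3e, -0.04 to 0.43 for Cd3g and -0.21 to 0.14 for Cd247. For the antibody comparison in tumour-bearing mice, that of Cd3d ran from -0.67 to -0.12.

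**Figure D2:**
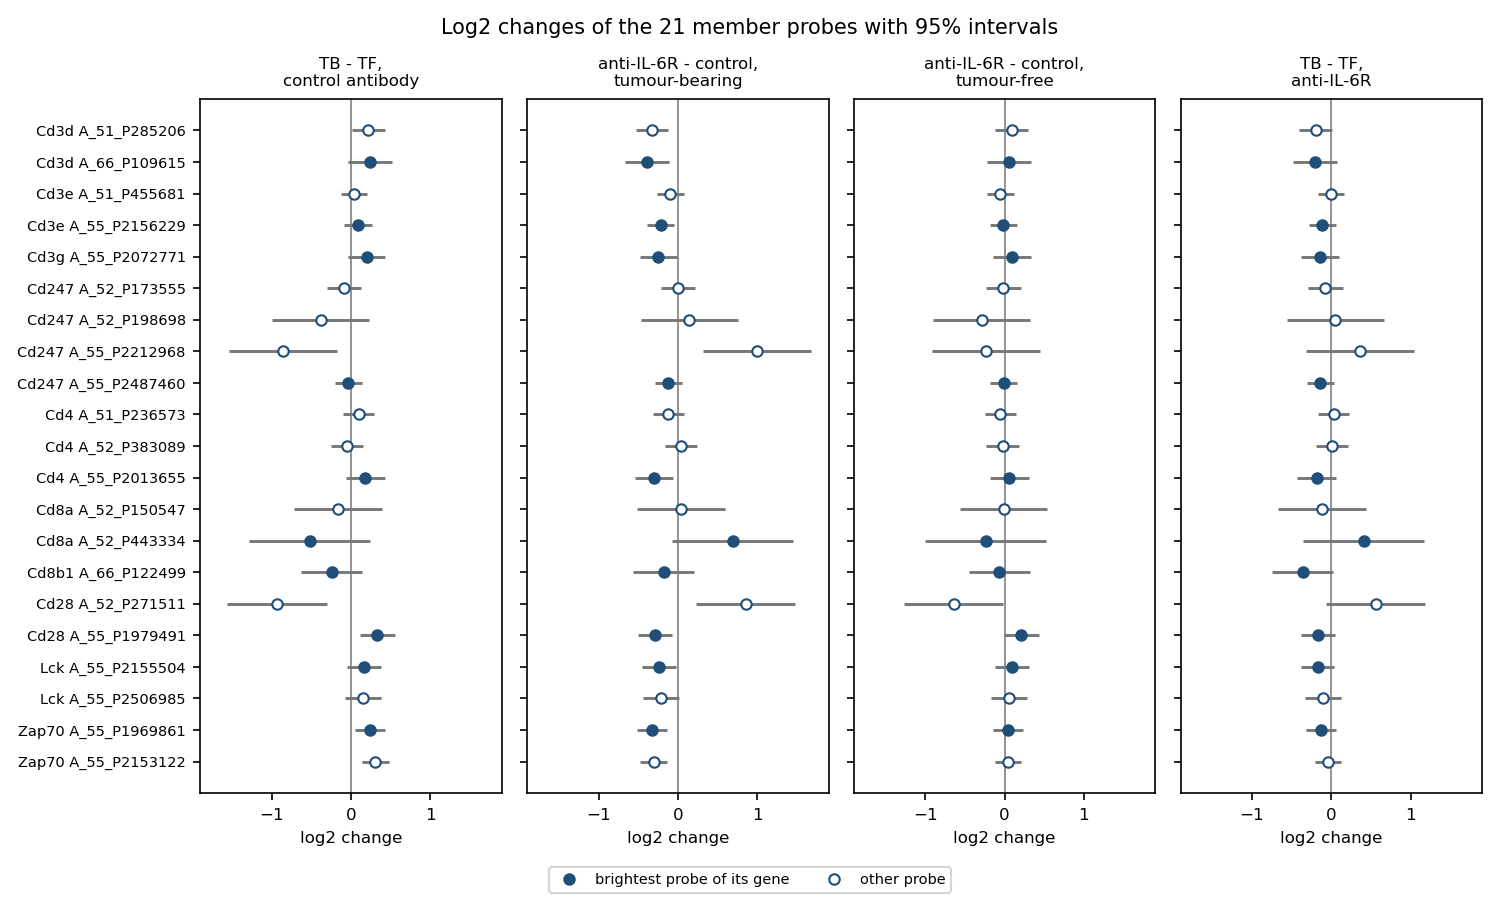
Log2 change of each of the 21 member probes in the 4 comparisons, with lines for the 95% interval from the limma fit; filled points are the brightest probe of a gene and open points its other probes. In each panel at least 18 of the 21 points lie within 0.4 of 0, and the dim Cd28 probe lies opposite to the bright one in all 4 panels.

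Probes of the same gene did not always move together. The probes of Cd3d correlated at r = 0.94 over the 8 arrays, those of Zap70 at 0.95, those of Lck at 0.91 and those of Cd3e at 0.85. The Cd28 probes ran in opposite directions (r = -0.94). The dim one, A_52_P271511 (chr1:60820867-60820926 in mm9), lies 9.277 kb upstream of the brightest one, A_55_P1979491 (chr1:60830144-60830203), and is annotated in the file to another transcript, from Ensembl. It stood at -1.30 and -0.72 in tumour-bearing anti-IL-6R mice, -2.03 and -1.70 in tumour-bearing controls, -1.75 and -1.39 in tumour-free anti-IL-6R mice and -1.27 and -0.59 in tumour-free controls. Replicates 2 and 8 were highest, and replicate 3 lowest. Between tumour-bearing and tumour-free controls its log2 change was -0.93 ± 0.27, while that of the brightest Cd28 probe was 0.33 ± 0.10. Its difference between the antibody effects was 1.50 ± 0.38 (adjusted p = 0.103), the largest of the 21 member probes.

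Cd247 held a similar pair. Probe A_55_P2212968 lies 8.757 kb downstream of the brightest Cd247 probe, A_55_P2487460. It stood at -1.04 and -0.10 in tumour-bearing anti-IL-6R mice, -1.49 and -1.64 in tumour-bearing controls, -1.06 and -0.81 in tumour-free anti-IL-6R mice and -0.99 and -0.42 in tumour-free controls. Replicates 2 and 8 were again highest. It correlated with the dim Cd28 probe at r = 0.89, and with the brightest probe of its own gene at -0.50. Another Cd247 probe, A_52_P198698, annotated in the file to an Ensembl transcript, was highest on replicate 2 at 0.70 and lay between -0.35 and 0.18 on the other arrays. The coding probe A_52_P173555 stayed between 1.55 and 1.79 and correlated with the brightest one at r = 0.75. These correlations are over 8 arrays that share their labelling and slide, and they are given as a description. Replicates 2 and 8, where the dim probes A_52_P271511 and A_55_P2212968 were highest, also had the highest array medians of the authors' deposited log2 values. Those medians were -3.21 and -3.09, against -3.34 to -3.26 on the other arrays. The cause of the opposite directions was not tested.

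**Figure D3:**
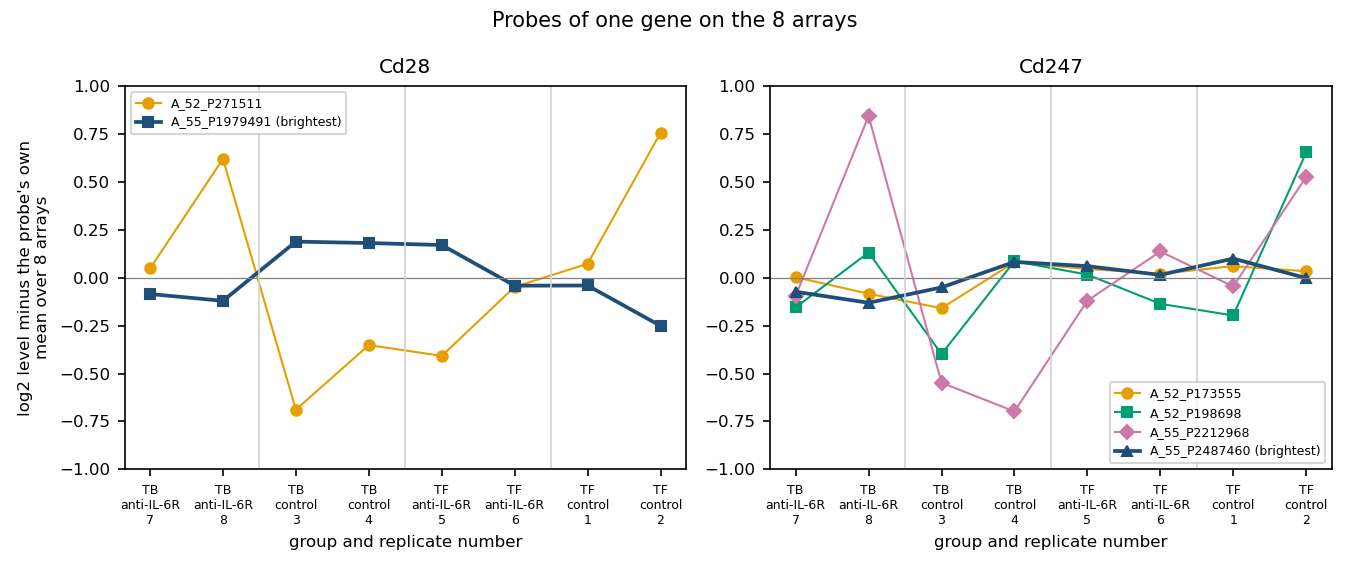
Log2 level of each Cd28 probe (left) and each Cd247 probe (right) minus that probe's own mean over the 8 arrays, by group and replicate. The brightest probe of each gene stays within 0.25 of its mean, and the dim probes A_52_P271511 and A_55_P2212968 are highest on replicates 2 and 8.

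Set against the CD3 chains of the same array, Zap70, Lck and Cd4 varied little, and Cd8a and Cd8b1 varied most. For each array the mean of the brightest probes of Cd3d, Cd3e, Cd3g and Cd247 was subtracted from the brightest probe of another member, and the difference was centred on its mean over the 8 arrays. For Lck the centred difference lay between -0.09 and 0.09 on all arrays, and for Cd4 between -0.10 and 0.15. For Zap70 it was 0.01 and -0.02 in tumour-bearing anti-IL-6R mice, 0.12 and 0.03 in tumour-bearing controls, -0.04 and -0.02 in tumour-free anti-IL-6R mice and -0.05 and -0.04 in tumour-free controls. Tumour-bearing controls were thus highest for Zap70 also relative to CD3. For Cd28 it was -0.02 and 0.07 in tumour-bearing anti-IL-6R mice, 0.13 and 0.01 in tumour-bearing controls, 0.09 and -0.01 in tumour-free anti-IL-6R mice and -0.11 and -0.16 in tumour-free controls. Tumour-free controls were lowest for Cd28, and the other groups overlapped. For Cd8a and Cd8b1 the array of replicate 4 stood apart, at -1.07 and -0.51. These ratios were chosen after the levels were seen and were not tested.

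**Figure D4:**
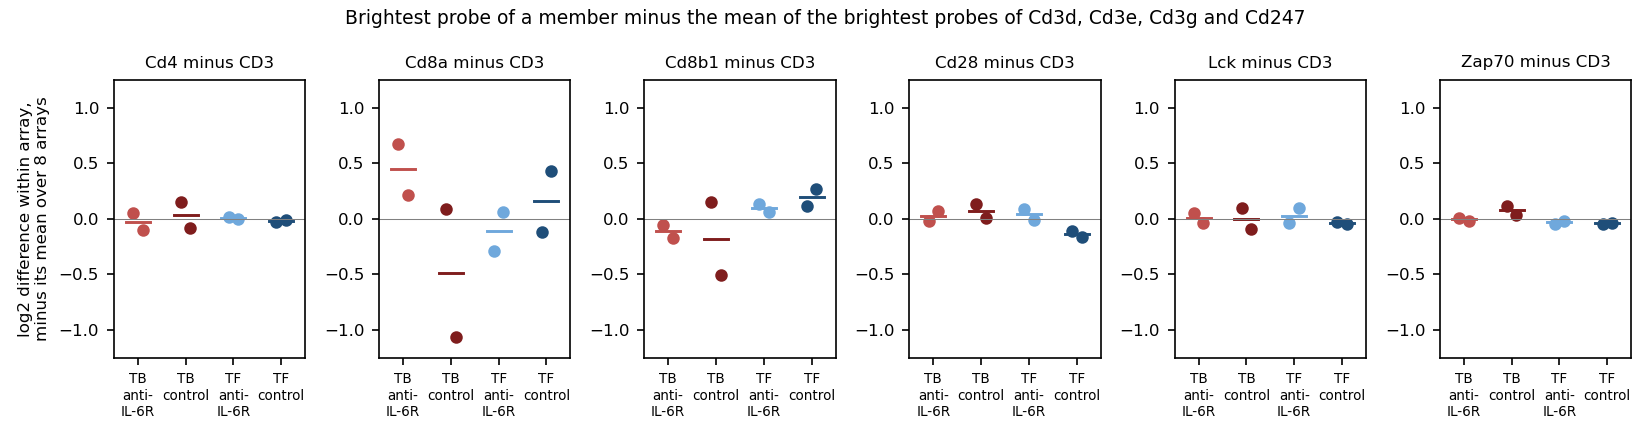
Log2 difference, within each array, between the brightest probe of a member and the mean of the brightest CD3 chain probes, centred on its mean over the 8 arrays. Points are arrays and bars are group means. Zap70 and Lck stay within 0.12 of 0 and Cd4 between -0.10 and 0.15, and replicate 4 among the tumour-bearing controls is lowest for Cd8a and Cd8b1.

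The brightest probes of Cd3d, Cd3e and Cd3g, 3 genes clustered on chromosome 9, correlated with each other at r = 0.88 to 0.92 over the 8 arrays, and Cd3d with Zap70 at 0.95. Cd4 correlated with Lck at 0.94. The brightest Cd8a probe ran against Cd3d, Cd3e and Cd3g at -0.57, -0.72 and -0.71. For the other Cd8a probe, A_52_P150547, these correlations were only -0.11, -0.15 and -0.14, and for Cd8b1 they were 0.24, 0.25 and 0.05. Promoters of the members were compared as well. They ran from 250 bases before to 50 after the annotated start (RefSeq, GRCm38.p6). The table held 10 promoters for 7 of the 10 genes, and those of Cd4, Cd8b1 and Cd28 were not used here. Cd3d and Cd3g are neighbours read in opposite directions. In their sequences, 5′ to 3′ on each gene's strand, the capitals mark matches on either strand to CACCTG (an E-box, bound by E proteins), GGAAGT (the core of Ets sites), CTTTGA (of TCF sites) and TGTGGT (of Runx sites).
Cd3d promoter, chr9:44981536-44981835, plus strand: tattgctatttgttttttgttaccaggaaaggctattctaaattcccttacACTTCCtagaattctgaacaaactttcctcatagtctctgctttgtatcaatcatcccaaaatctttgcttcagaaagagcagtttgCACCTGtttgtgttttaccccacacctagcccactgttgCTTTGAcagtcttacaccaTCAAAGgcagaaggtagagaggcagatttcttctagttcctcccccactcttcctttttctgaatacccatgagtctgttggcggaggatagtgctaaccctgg
Cd3g promoter, chr9:44980382-44980681, minus strand: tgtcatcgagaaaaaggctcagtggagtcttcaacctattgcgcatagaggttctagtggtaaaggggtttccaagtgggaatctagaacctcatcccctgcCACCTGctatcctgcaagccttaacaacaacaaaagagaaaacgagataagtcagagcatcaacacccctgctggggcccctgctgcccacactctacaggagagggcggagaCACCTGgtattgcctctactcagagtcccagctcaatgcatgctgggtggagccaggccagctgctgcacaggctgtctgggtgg
Cd3d held CACCTG at position -112 from the annotated start and matches to CTTTGA at -73 and -54, and Cd3g held CACCTG at -148 and -35. Over all members, CACCTG stood in 8 of 10 promoters, in 6 of the 7 genes, where 20.2% of the 32851 promoters in the table held it. GGAAGT stood in 6 of 10, where 23.8% of all promoters held it. CTTTGA stood in 3 of 10 against 16%, and TGTGGT in 2 of 10 against 16.8%. No match of one motif overlapped a match of another. These are matches of letters only, and binding was not measured. Whether the motifs bear on the correlations between probes was not tested.

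Beyond the members, a list of 46 other genes, all measured, gave 101 probes. It held kinases, phosphatases, adaptors and effectors of receptor signalling, and also costimulatory and surface receptors. Not all of them act downstream of the members. In tumour-bearing against tumour-free mice with control antibody 5 of these probes rose and 1 fell, where 3.36% and 1.89% of all probes did. The median of the 101 was -0.07. Icos, a costimulatory receptor related to CD28, was at 4.66 and 4.78 in tumour-bearing controls and at 3.64 and 3.49 in tumour-free controls, a rise of 1.16 ± 0.08 (adjusted p = 7.5e-04). Ctla4, the inhibitory receptor that competes with CD28 for ligand, was at 0.59 and 1.01 in tumour-bearing controls and at -0.22 and 0.01 in tumour-free controls, a rise of 0.90 ± 0.17 (adjusted p = 0.026). Ubash3b, a phosphatase that dampens receptor signalling, rose on both of its probes, by 0.59 ± 0.11 on A_55_P2095019 and 0.51 ± 0.11 on A_52_P476754. Cd5, a surface receptor that sets the threshold of receptor signalling, rose by 0.39 ± 0.08 (adjusted p = 0.040). One of 4 Themis probes, A_52_P459247, fell by 0.82 ± 0.19 (adjusted p = 0.0495). Themis is an adaptor best known from thymocytes. Without the intensity trend, Ctla4, Cd5, Themis and each Ubash3b probe lost their call. With no filter on dim probes, Ctla4, Cd5, Themis and Ubash3b A_52_P476754 lost theirs. Array weights removed the calls of Cd5, Themis and Ubash3b A_52_P476754, and normexp those of Cd5 and Themis. Cd5 also lost its call with only the groups compared, and Themis under quantile normalization and with the percentile over spots. Icos remained called in all 8 leave-one-out fits and all 11 other settings. The Themis call was lost in all 8 leave-one-out fits, and Cd5 kept its call in 3 of 8, Ctla4 in 5 of 8 and each Ubash3b probe in 4 of 8.

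With anti-IL-6R in tumour-bearing mice, 2 of the 101 pathway probes fell and 0 rose, where 2.76% and 1.51% of all probes did. Icos was at 4.17 and 4.18 in tumour-bearing anti-IL-6R mice, against 4.66 and 4.78 in tumour-bearing controls, a log2 change of -0.55 ± 0.08 (adjusted p = 0.027). The change of Ubash3b A_55_P2095019 was -0.59 ± 0.11 (adjusted p = 0.032). With no filter on dim probes, and also without the intensity trend, neither Icos nor this Ubash3b probe was called. Each of these calls was lost without replicate 3, without replicate 4 and without replicate 8. In the remaining comparisons 0 of the 101 were called, nor was the difference between antibody effects called for Icos, at -0.87 with an adjusted p of 0.056, although it was called without replicate 1 (0.038), without replicate 6 (0.042) and without replicate 7 (0.049). By step, 25 probes of kinases and phosphatases had medians of -0.11 in the tumour comparison and 0.12 in the antibody comparison in tumour-bearing mice. The medians were -0.09 and -0.001 for 37 probes of adaptors, -0.11 and 0.03 for 31 probes of effectors, and 0.23 and -0.20 for 8 probes of costimulatory and surface genes.

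Some marker lists of other cell types had many called probes in the same comparisons, and others had few. In tumour-bearing against tumour-free controls, 11 of 14 erythroid probes rose (median change 2.65), as did 6 of 11 neutrophil probes (1.98) and 7 of 9 plasma cell probes (1.43), while 9 of 18 B cell probes fell (-0.97). Without 1 replicate these counts were 7 to 11 for erythroid, 5 to 9 for neutrophil, 2 to 6 for plasma cell and 2 to 11 for B cell probes. The B cell count was 2 without replicate 2 and without replicate 4, and the plasma cell count was 2 without replicate 2 and without replicate 3. Of the remaining lists, 1 of 12 monocyte and macrophage, 1 of 17 dendritic cell and 1 of 5 platelet probes were called, and 0 of 5 endothelial and 0 of 4 fibroblast probes. Their median changes were -0.47, -0.25, -0.47, -0.04 and 0.21, in that order. The summed scaled signal of the neutrophil list was 119 to 127 in tumour-bearing controls and 33.4 to 53.2 in tumour-free controls, that of the erythroid list 81.0 to 117 and 53.7 to 55.8, and that of the B cell list 27.4 to 38.6 and 49.8 to 66.6. In tumour-bearing mice with anti-IL-6R these sums were 35.2 to 52.9 for neutrophil, 60.3 to 69.9 for erythroid and 51.3 to 55.5 for B cell markers. The dendritic cell sum was 466 to 613 in tumour-bearing controls, 673 to 684 in tumour-free controls and 706 to 735 in tumour-bearing anti-IL-6R mice. For the same groups the monocyte and macrophage sum was 171 to 204, 176 to 192 and 238 to 266. The highest neutrophil sum of all 8 arrays, 152, was that of replicate 6, a tumour-free anti-IL-6R array; the other array of that group had 37.6. With anti-IL-6R in tumour-bearing mice, 6 of 11 neutrophil and 9 of 14 erythroid probes fell against control antibody, and 4 of 18 B cell probes rose. Without 1 replicate these counts were 4 to 9, 0 to 9 and 0 to 7. The erythroid count was 1 without replicate 3 and 0 without replicate 8, and the B cell count was 1 without replicate 3 and 0 without replicate 4 or without replicate 8. Of the plasma cell list, 1 of 9 probes fell (median change -0.48). The remaining lists had 2 of 12 monocyte and macrophage, 0 of 17 dendritic cell, 2 of 5 platelet, 1 of 5 endothelial and 0 of 4 fibroblast probes called. Their median changes were nevertheless 0.63, 0.50, 0.88, 0.65 and 0.55, in that order. In the same order, 10 of 12, 15 of 17, 5 of 5, 5 of 5 and 3 of 4 probes had a change above 0. Natural killer markers, some of which cytotoxic T cells share, fell on 4 of 13 probes and rose on 2 in the tumour comparison. In the antibody comparison in tumour-bearing mice they rose on 4 of 13 probes and fell on 0 (median change 0.56). No probe of Klrc1 (natural killer), Xcr1 (dendritic cell), Emcn (endothelial), Pdgfra or Pdgfrb (fibroblast) was well above background throughout any group. Every other marker in these lists had a probe that was so in at least 1 group. Replicate 4, the lowest array for Cd8a and Cd8b1 relative to CD3, also had the lowest mean log2 level of 4 marker lists. These were the dendritic cell (0.55), monocyte and macrophage (1.18), natural killer (-0.96) and B cell (-0.87) lists. For the remaining marker lists another array was lowest. The part of these cells in the values of the 10 members was not tested.

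**Figure D5:**
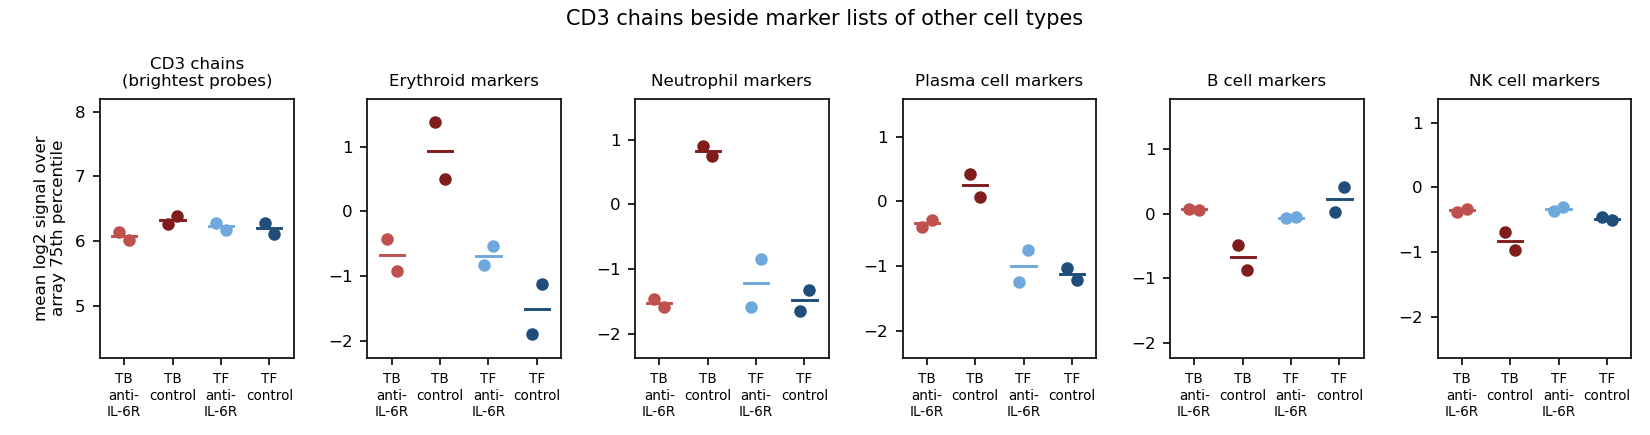
Mean log2 level of the brightest CD3 chain probes and of 5 marker lists of other cell types; points are arrays, bars are group means, and all panels cover the same span of the log2 scale. The CD3 mean lies between 6.01 and 6.38 on all arrays, and the mean log2 levels of the erythroid, neutrophil and plasma cell lists are highest in tumour-bearing controls.

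By likeness to the mean of all 9 CD3 chain probes, the nearest other genes over the 8 arrays were 4921531C22Rik, Osbpl9, Trub1, Nup98 and Ermard (r = 0.954 to 0.972). That mean followed the Cd247 probe A_52_P198698 (r = 0.76) more than the brightest Cd3d probe (r = 0.13). Against the mean of the brightest CD3 probes, an alternative chosen after the data were seen, the nearest named genes were Fbxl6, Smarca5, Psma4 and Trmt112 (r = 0.988 to 0.992). Neither list shared a gene with the other.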

How the data were processed

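Each of the 8 samples was hybridised to 1 one-colour array labelled with cyanine-3 from 0.1 µg of RNA, all on 1 slide and in 1 scan. The deposited intensity values were made by the scanner software Agilent Feature Extraction, which the submitters' processing notes give as version 10.10.1.1, and spatially detrended within the array, per the file headers. Outlier spots were dropped (60 to 95 per array), spots of a probe were averaged, and log2 values were taken minus the array's 75th percentile over probes. Testing required a probe to pass the software's well-above-background flag on each array of 1 or more groups. The authors' deposited log2 table matched these values on every array (r = 1). Its column medians, replicates 1 to 8, were -3.30, -3.21, -3.34, -3.34, -3.30, -3.26, -3.26 and -3.09. Its centring and scale are thereby known from the comparison, and not from the sources used here.

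Limma 3.58.1 in R 4.3.3 fitted 4 group means with an intensity trend (residual degrees of freedom 4, prior 4.29). Tests were two-sided. The script was tested on simulated data. Figures were drawn with Python 3.11.15 and matplotlib 3.10.9. The 10 members, the lists of 46 pathway genes and of markers, and the tests were chosen with earlier results of these data known. Named genes were all members, up to 6 called pathway probes with the smallest p per comparison, and the 5 genes most like the CD3 mean. Each group held 2 independent experiments, per the labels, and p-values reflect only how these samples vary. The slide row cannot be told apart from the antibody, nor the slide columns (1 and 2 tumour-free, 3 and 4 tumour-bearing) from the host.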

Additional observations from a re-analysis of the deposited data

How the results depend on the processing

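No paired analysis was possible because the replicate numbers run from 1 to 8 and no group shares one with another. The labels do not tell which samples belong to one experiment, so arrays may be paired in a way that could not be modelled. A slide block was not run, because all arrays lay on 1 slide. The count of called member probes was 0 in every comparison. It became 1 in the tumour comparison with control antibody under normexp background correction, under quantile normalization and with the 75th percentile taken over spots, each time Zap70 A_55_P2153122. In the antibody comparison in tumour-bearing mice it became 2 under normexp (both Zap70 probes), 1 under quantile normalization (Cd3d A_51_P285206) and 1 with the percentile over spots. Without 1 replicate it ranged from 0 to 1 there, the 1 being Cd247 A_55_P2212968 without replicate 7. The percentile over spots was chosen after seeing the data. The cause of these gains was not tested. In the other 3 comparisons it stayed 0 under all alternatives run, and no called change reversed.

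Over all probes, 1681 were called in the tumour comparison, against 674 with no filter on dim probes, 722 without the intensity trend, 901 with array weights and 427 (without replicate 2) to 1787 without 1 replicate. In the antibody comparison in tumour-bearing mice 1369 were called, against 15, 56 and 1327 under those settings, 908 with only the groups compared, and 24 (without replicate 8) to 1766 without 1 replicate. Median centring, a filter for probes well above background on all arrays, 1 probe per gene and the deposited value table left the count of called members at 0.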
